A study of Rattus norvegicus and Mus musculus with 24 samples.

Results

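A set of 10 genes of cystine transport and glutathione metabolism was followed in kidneys that lack the lysosomal cystine exporter cystinosin, encoded by Ctns. The symbols were SLC7A11, SLC3A1, SLC7A9, GCLC, GCLM, GSS, GSR, GGT1, CHAC1 and CTH, and each was taken as the row of the mouse and the rat expression table with exactly that symbol. Of these, 9 were analysed, out of 17376 symbols in the mouse table and 14931 in the rat table; GGT1 was not analysed here. Bulk RNA sequencing covered 4 Ctns KO and 4 Ctns WT mice (C57BL/6 background) and 8 Ctns KO and 8 Ctns WT rats (Sprague-Dawley background), 1 library per animal, with littermates as controls. In both species Ctns was missing from the whole animal and not from 1 cell type. The labels give no age, sex or treatment for the sequenced animals, although the study also placed rapamycin or placebo pellets in rats. Rats carry the numbers 17 to 24 or 25 to 32, with 4 KO and 4 WT in each range, and what separates the ranges is not stated.

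Cystine is the oxidised dimer of cysteine. Cells take it up through the exchanger xCT (SLC7A11), which gives out glutamate in return, and the proximal tubule (PT) recovers it from the filtrate through a heavy chain, rBAT (SLC3A1), paired with a light chain, b0,+AT (SLC7A9); inherited loss of either causes cystinuria. Inside the cell cystine is reduced to cysteine, which cystathionine gamma-lyase (CTH) can also make from methionine. Glutamate-cysteine ligase (catalytic GCLC, modifier GCLM) and glutathione synthetase (GSS) join cysteine, glutamate and glycine into glutathione. Glutathione reductase (GSR) returns oxidised glutathione to the reduced form, CHAC1 cleaves glutathione within the cell, and GGT1 does so at the cell surface.

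The 24 libraries held 19309371 to 44449845 reads on genes in mice and 24684097 to 40629873 in rats. Ctns itself had 327 to 556 reads in Ctns KO mice and 935 to 1965 in Ctns WT mice. In rats it had 430 to 715 reads in Ctns KO and 476 to 1074 in Ctns WT animals (log2 fold change -0.22, SE 0.08, edgeR adjusted p = 0.0511), so the rat genotype could not be checked from this total, which does not tell which part of the gene the reads came from. Fitted by range, Ctns was lower in KO rats 25 to 32 (-0.32, SE 0.11, edgeR adjusted p = 0.0391), where 43.8% of all symbols passed. It did not pass in rats 17 to 24 (-0.11, SE 0.08, adjusted p = 0.514), and the genotypes overlapped in both ranges. Ctns KO mouse 3 stood apart with 49 reads of XIST against 17581 to 42003 in the other 7 mice. The paper reports only female mice, as kidney cystine is higher in females than in males. The sex of the sequenced mice was not checked beyond XIST, and fits without KO mouse 3 are given below. The labels name both kidney cortex and proximal tubule cells. The paper gives kidney cortex as the source of RNA for its bulk sequencing. SLC34A1, the phosphate transporter that marks the PT, stood at 4191 to 7035 CPM (counts scaled to library size) in mice and 3087 to 6845 in rats, and UMOD, a marker of the thick ascending limb, at 4334 to 5506 and 1848 to 3503. In such bulk samples, fewer cells of a type and less RNA per cell cannot be told apart.

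The regulatory starts of 4 genes are shown because SLC7A11 and CHAC1 rose in rats and because the letters of known response elements were looked for there. ATF4 drives genes of the amino acid response through the C/EBP-ATF element, TGATGNAA, and NRF2 drives antioxidant genes through the antioxidant response element, whose core was searched as TGACNNNGC. Both strands were read in windows from 250 bases before to 50 bases after the gene start, taken from RefSeq for the rat build GRCr8. That build is not the one the reads were counted on. A window was found for 9 of the 10 genes, all but Gsr. TGATGNAA was present in 3.98% and TGACNNNGC in 12.1% of 33469 rat promoters. Among the 9 windows, TGATGNAA was found 1 time, 167 bases before the start of Chac1 on the opposite strand. TGACNNNGC was found 1 time each for Gclm, 172 bases before the start, and for Slc3a1, 179 bases before it, both on the opposite strand. These matches are of letters and were not tested for binding. Capitals mark the matched letters. The Chac1 window is chr3:126795881-126796180 on the plus strand and the Slc7a11 window chr2:136668215-136668514 on the minus strand, and the short runs come from the Gclm window at chr2:213031885-213032184 (plus) and the Slc3a1 window at chr6:15394700-15394999 (minus).
Chac1: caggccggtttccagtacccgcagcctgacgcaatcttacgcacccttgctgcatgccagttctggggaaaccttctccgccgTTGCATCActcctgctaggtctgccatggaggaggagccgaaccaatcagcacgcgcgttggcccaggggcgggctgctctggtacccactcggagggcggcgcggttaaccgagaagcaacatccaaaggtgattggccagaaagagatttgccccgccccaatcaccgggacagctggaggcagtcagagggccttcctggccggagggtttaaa
Slc7a11: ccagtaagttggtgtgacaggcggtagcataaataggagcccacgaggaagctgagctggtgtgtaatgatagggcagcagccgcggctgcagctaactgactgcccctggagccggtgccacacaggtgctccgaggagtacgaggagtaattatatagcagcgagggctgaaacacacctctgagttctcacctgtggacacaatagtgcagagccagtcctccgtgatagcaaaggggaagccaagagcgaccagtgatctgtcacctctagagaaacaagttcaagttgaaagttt
Gclm, around the match: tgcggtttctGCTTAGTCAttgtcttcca
Slc3a1, around the match: tgttactgtaGCTGAGTCAaccacctggt

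To place the genes on a common scale, levels were compared per kilobase of transcript in Ctns WT mice, with GENCODE vM21 transcript lengths. SLC3A1 was highest at 377 ± 41.0 CPM per kilobase (SD, n = 4). It was followed by SLC7A9 (132 ± 36.2), GSS (129 ± 14.3), CTH (111 ± 12.5), GCLC (102 ± 16.6), GCLM (73.6 ± 11.9) and GSR (57.6 ± 10.2), all in CPM per kilobase. Ranges over the 4 mice overlapped between neighbours from SLC7A9 down to GSR, so their order is not settled. CHAC1 (0.316 ± 0.170 CPM per kilobase) and SLC7A11 (0.0282 ± 0.0121 CPM per kilobase) lay far below, without overlap with each other or with GSR.

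In rats, 5 of the 9 genes passed the test between Ctns KO and Ctns WT animals (edgeR, adjusted p under 0.05), against 27.5% of all 11584 symbols tested. SLC7A11 is among the 5 although it entered the fit through Ctns KO rats alone and had to differ; of the other 8 genes, 4 passed. SLC7A11 and CHAC1 rose (15.2% of all symbols rose), and SLC3A1, GSR and CTH fell (12.3% fell). The plot of levels by rat shows every animal, and the plot of fold changes sets the ranges side by side. For several genes below, groups of 4 rats did not overlap. The share of all symbols whose groups of 4 do not overlap was not computed, so these separations have no background beside them. In rats 25 to 32, 43.8% of all symbols passed the test. Scaling sets part of the split between rises and falls. With library totals in place of TMM scaling (the trimmed mean of M-values) the median of all symbols moved up by 0.09 on the log2 scale in all rats and by 0.16 in rats 25 to 32, and the calls went from 1760 higher and 1420 lower to 2644 higher and 687 lower in all rats, and from 2534 higher and 2566 lower to 4252 higher and 1135 lower in rats 25 to 32.

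**Figure D1:**
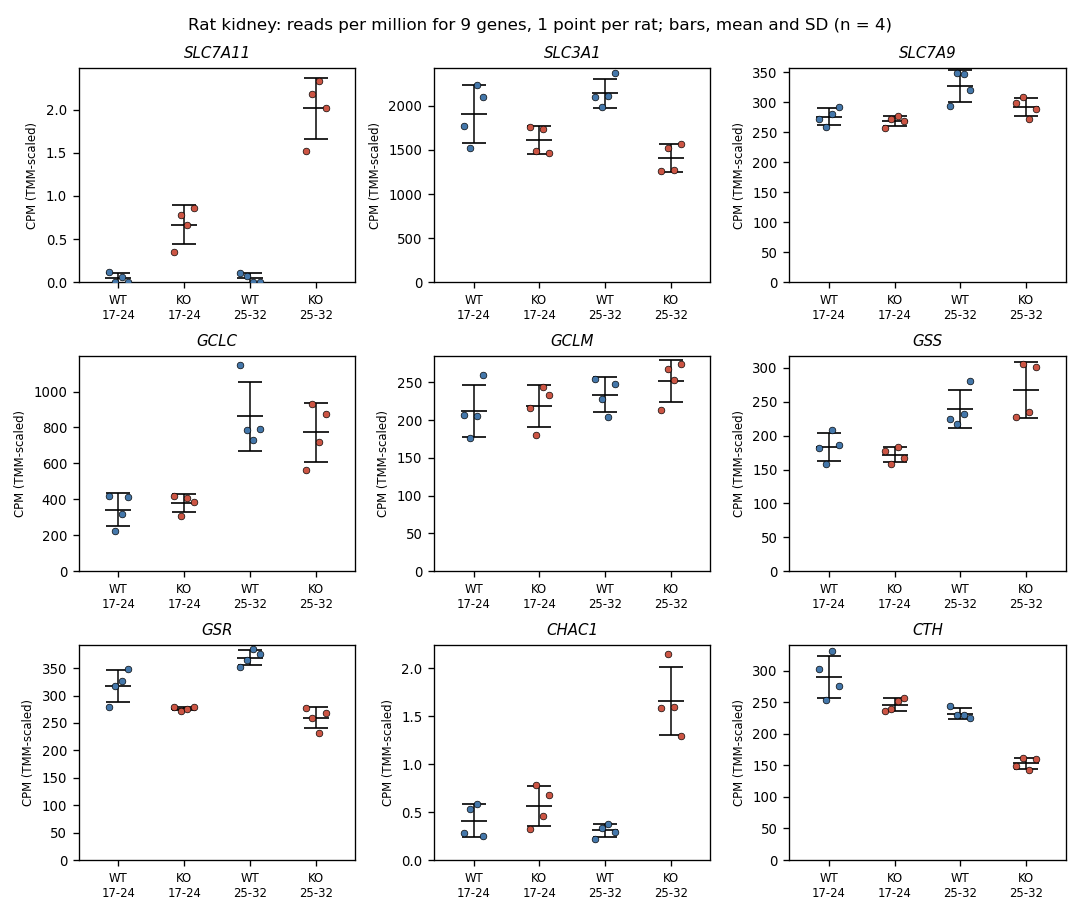
TMM-scaled CPM (linear axes from 0) of 9 genes in rat kidney, by genotype and number range; each point is 1 rat, and bars give the mean and SD of 4 rats. SLC7A11 is at 0 to 0.121 CPM in Ctns WT rats and at 0.351 to 2.33 CPM in Ctns KO rats, while GCLC follows the number range in both genotypes.

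SLC7A11 was almost silent in Ctns WT rats. It had 3, 0, 2 and 0 reads in WT rats 17, 19, 21 and 23, and 3, 3, 0 and 0 reads in WT rats 25, 27, 29 and 31. In Ctns KO rats 18, 20, 22 and 24 it had 11, 23, 19 and 28 reads, and in Ctns KO rats 26, 28, 30 and 32 it had 49, 64, 76 and 50. Every KO rat was above every WT rat, and KO rats 26 to 32 were all above KO rats 18 to 24. With 8 rats on each side, KO and WT rats did not overlap, in either direction, for 5.84% of all symbols. Summed over animals, the scaled reads were 29.3 times higher in KO than in WT rats (exact 95% interval 16.2 to 59.3, counting error only). The same ratio was 16.4 (6.75 to 51.9) in rats 17 to 24 and 39.9 (18.1 to 110) in rats 25 to 32. No WT rat reached the 0.330 CPM that the filter on low counts asks for, so this gene entered the test through the KO rats alone, in all rats and in each range. The fitted log2 fold change, which depends on the prior count here, was 4.76 (SE 0.57, edgeR adjusted p = 2.09e-05). Even in KO rats the level stayed low, at 1.34 ± 0.77 CPM (SD, n = 8). Mouse Slc7a11 lies at chr3:49892526-50443614 on the minus strand of GRCm38.

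The partner that xCT needs at the cell surface, the heavy chain SLC3A2, was lower in Ctns KO rats, at 423 ± 34.1 against 503 ± 64.6 CPM (SD, n = 8; log2 fold change -0.25, SE 0.08, adjusted p = 0.0245). The neuronal and renal glutamate and cysteine transporter SLC1A1 fell as well, from 192 ± 46.8 to 126 ± 11.2 CPM (log2 fold change -0.60, SE 0.12, adjusted p = 0.00172). MFSD12, which carries cysteine into lysosomes and melanosomes, rose from 7.85 ± 1.48 to 13.5 ± 3.97 CPM (log2 fold change 0.78, SE 0.17, adjusted p = 0.00286). Of the 12 other carriers of cystine, cysteine, glutamate and glutathione, those 3 passed the test in all rats, near the 27.5% of all symbols called. Within rats 25 to 32, 6 of the 12 passed, 2 higher and 4 lower, near the 43.8% of all symbols called in that range. In mice 1 of the 12 passed, against 4.32% of all symbols. This was SLC7A13, a carrier of the late PT, with 5 to 9 reads in KO and 10 to 31 in WT animals. Its difference was -0.01 (limma, adjusted p = 0.0402) on a log2(value + 1) scale, which understates changes of low genes. With edgeR on mouse reads its log2 fold change was -1.29 (SE 0.34, adjusted p = 0.0287).

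The apical cystine carrier was lower at its heavy chain. SLC3A1 stood at 1517 to 2376 CPM in Ctns WT rats (median 2096) and at 1267 to 1754 CPM in Ctns KO rats (median 1507). The means were 2024 ± 271 and 1512 ± 182 CPM (SD, n = 8), and the log2 fold change was -0.42 (SE 0.09, adjusted p = 0.00309). All 4 KO rats of the range 25 to 32, at 1267, 1526, 1277 and 1570 CPM, were below the 4 WT rats of that range, at 2095, 1986, 2112 and 2376 CPM. In rats 17 to 24 the groups overlapped, with KO rats at 1754, 1489, 1741 and 1469 CPM and WT rats at 1767, 1517, 2240 and 2097 CPM. Mouse Slc3a1 lies at chr17:85028376-85064236 on the plus strand of GRCm38.

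The light chain SLC7A9 did not pass in all rats. It stood at 258 to 348 CPM in WT rats (median 293) and at 257 to 308 CPM in KO rats (median 275), with a log2 fold change of -0.11 (SE 0.07, adjusted p = 0.251). In rats 25 to 32 the log2 fold change was -0.16 (SE 0.07, adjusted p = 0.0894), and without WT rat 25 it was -0.21 with an adjusted p of 0.0413. With library totals it was near 0 in that range. The reads of SLC3A1 per read of SLC7A9 therefore differed between the genotypes of rats 25 to 32, at 4.83 ± 0.49 in KO and 6.60 ± 0.83 in WT animals (SD, n = 4), with no overlap. In rats 17 to 24 the ratio was 6.02 ± 0.66 in KO and 6.88 ± 0.90 in WT animals, and the groups overlapped. This ratio, which is free of library scaling, was chosen after the values were seen and was not tested. Mouse Slc7a9 lies at chr7:35448796-35466036 on the plus strand.

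**Figure D2:**
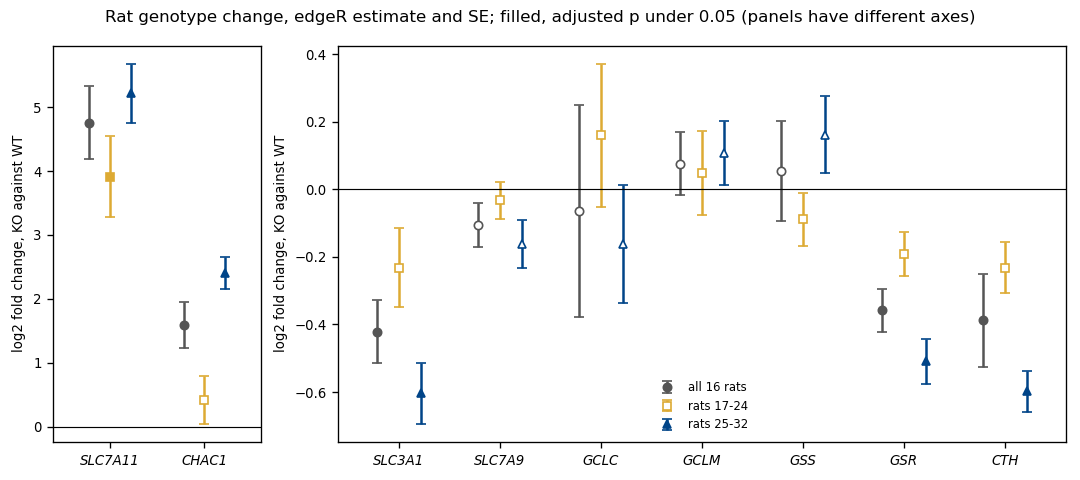
Log2 fold change of Ctns KO against Ctns WT rats with its SE (edgeR), for all 16 rats and for the ranges 17 to 24 and 25 to 32 fitted alone; filled symbols passed an adjusted p of 0.05, and the panels have different axes. SLC7A11 is filled in all 3 fits, CHAC1, SLC3A1, GSR and CTH in all rats and in rats 25 to 32, and SLC7A9, GCLC, GCLM and GSS in none.

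The 3 genes of glutathione synthesis did not pass between genotypes in rats. GCLM, the modifier of glutamate-cysteine ligase, was at 177 to 259 CPM in WT rats (median 217) and 180 to 274 CPM in KO rats (median 238), with a log2 fold change of 0.08 (SE 0.09, adjusted p = 0.572). GSS was at 158 to 281 CPM in WT (median 213) and 159 to 306 CPM in KO rats (median 206; log2 fold change 0.05, SE 0.15, adjusted p = 0.812). The catalytic subunit GCLC was at 221 to 1149 CPM in WT rats (median 575) and 306 to 932 CPM in KO rats (median 490; log2 fold change -0.07, SE 0.31, adjusted p = 0.894). With library totals, GCLM (log2 fold change 0.27, adjusted p = 0.0393) and GSS (0.32, adjusted p = 0.0259) passed as higher in rats 25 to 32, where that scaling adds 0.16 to the median of all symbols. Mouse Gclc, Gclm and Gss lie at chr9:77754535-77794485 (plus), chr3:122245557-122270732 (plus) and chr2:155563181-155592810 (minus).

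What GCLC followed was the number range. In Ctns WT rats 17, 19, 21 and 23 it was at 419, 221, 317 and 411 CPM, and in WT rats 25, 27, 29 and 31 at 1149, 784, 732 and 789 CPM. Ctns KO rats were split the same way, at 418, 306, 408 and 388 CPM for 18, 20, 22 and 24, and at 562, 932, 721 and 873 CPM for 26, 28, 30 and 32. The ranges did not overlap in either genotype. Among WT rats alone the log2 difference of 25 to 32 against 17 to 24 was 1.34 (SE 0.20, adjusted p = 2.08e-04). GCLM did not pass between the same rats (0.14, SE 0.12, adjusted p = 0.433), so that reads of GCLC per read of GCLM went from 1.60 ± 0.32 to 3.68 ± 0.58 in WT and from 1.74 ± 0.13 to 3.04 ± 0.37 in KO rats (SD, n = 4). The ratio was not tested.

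**Figure D3:**
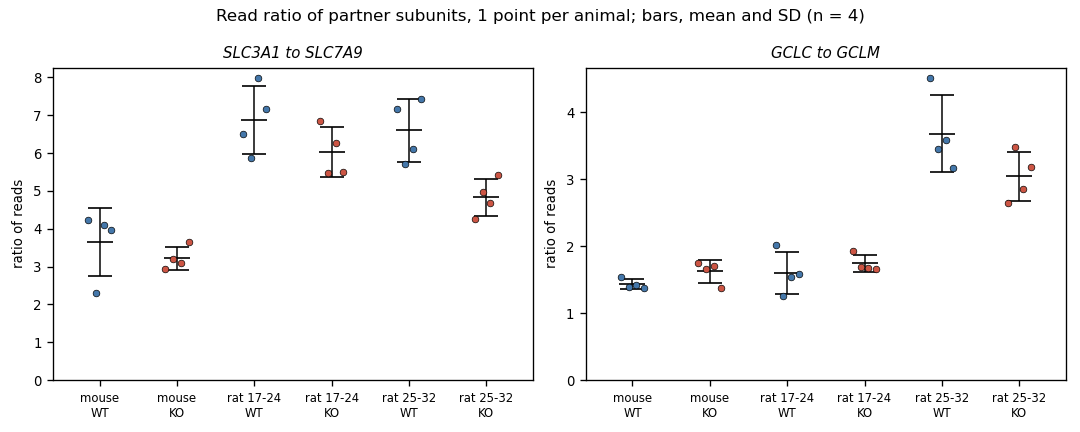
Ratio of reads between partner subunits in each animal (linear axes from 0): the carrier chains SLC3A1 and SLC7A9, and the ligase subunits GCLC and GCLM; each point is 1 animal, and bars give the mean and SD of 4 animals. In rats 25 to 32 the SLC3A1 to SLC7A9 ratio is lower in Ctns KO than in Ctns WT animals, and the GCLC to GCLM ratio is above that of rats 17 to 24 in both genotypes.

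Of the 9 genes, 5 passed between the number ranges within Ctns WT rats, against 21.6% of all symbols. Beside GCLC, WT rats 25 to 32 were higher in GSS (log2 difference 0.38, SE 0.11, adjusted p = 0.0178), SLC7A9 (0.24, SE 0.06, adjusted p = 0.00985) and GSR (0.22, SE 0.07, adjusted p = 0.0275), and lower in CTH (-0.33, SE 0.07, adjusted p = 0.0034). The GSR call was lost without any of WT rats 17, 19, 29 or 31, GSS without 19 or 31, and SLC7A9 without 29. PT markers moved with the range too: 10 of 15 were higher and 1 lower in WT rats 25 to 32, and their summed level was 36494 to 42036 CPM there against 25600 to 31561 CPM in WT rats 17 to 24. Their part in these differences was not tested.

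GSR, which returns oxidised glutathione to its reduced form, was lower in Ctns KO rats. KO rats ranged from 232 to 279 CPM (median 274) and WT rats from 279 to 384 CPM (median 350), and the groups overlapped at a single WT animal, rat 17. Means were 268 ± 15.7 and 343 ± 34.6 CPM (SD, n = 8), a fall of 22% (log2 fold change -0.36, SE 0.06, adjusted p = 6.43e-04). Within the range 25 to 32, KO animals at 277, 260, 232 and 268 CPM were all below WT animals at 352, 364, 384 and 375 CPM. The log2 fold change was -0.51 (SE 0.07, adjusted p = 1.97e-04) there and -0.19 (SE 0.06, adjusted p = 0.1) in rats 17 to 24. Without WT rat 17 the smaller change passed as well (adjusted p = 0.0151). Mouse Gsr lies at chr8:33652523-33698163 on the plus strand.

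CHAC1, a target of ATF4 in the amino acid response, rose in Ctns KO rats, from 89 to 266 reads summed over 8 animals each (ratio of scaled reads 3.01, exact 95% interval 2.36 to 3.87, counting error only; log2 fold change 1.59, SE 0.36, adjusted p = 0.00353). The rise lay in the upper number range. KO rats 26, 28, 30 and 32 had 51, 63, 52 and 32 reads, and WT rats 25, 27, 29 and 31 had 6, 13, 10 and 8. KO rats 18, 20, 22 and 24 had 10, 23, 13 and 22 reads, and WT rats 17, 19, 21 and 23 had 7, 18, 19 and 8. The groups did not overlap in the upper range, where the ratio was 5.37 (3.76 to 7.84), and overlapped in the lower one, where it was 1.32 (0.909 to 1.94). How many of all symbols separate in this way within a range was not computed. The filter cutoff was reached by 7 KO and 3 WT rats. In rats 25 to 32 fitted alone it was reached by 4 KO and 1 WT rats, so KO rats sufficed to bring CHAC1 into that fit. Mouse Chac1 lies at chr2:119351229-119354381 on the plus strand.

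CTH, the enzyme that releases cysteine from cystathionine, was lower in Ctns KO rats within each range. Of rats 25 to 32, KO animals were at 149, 161, 143 and 160 CPM and WT animals at 244, 229, 230 and 225 CPM. Of rats 17 to 24, KO animals were at 236, 239, 253 and 257 CPM and WT animals at 302, 254, 331 and 276 CPM. The upper range did not overlap and fell by 33.9% (log2 fold change -0.60, SE 0.06, adjusted p = 3.98e-05), and in the lower range KO rat 24 was above WT rat 19 (log2 fold change -0.23, SE 0.08, adjusted p = 0.0893). Over all rats the log2 fold change was -0.39 (SE 0.14, adjusted p = 0.0452). That call was lost in 11 of the 16 fits that left out 1 rat (KO 26, 28, 30 or 32, or any WT rat but 27; adjusted p 0.0558 to 0.111) and with library totals (-0.30, adjusted p = 0.131). With the number range as a covariate it held, with an adjusted p of 1.49e-04. Mouse Cth lies at chr3:157894248-157925077 on the minus strand.

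The genotype change was then compared between the number ranges. In rats 17 to 24, 1 of the 9 genes passed (SLC7A11, log2 fold change 3.91, SE 0.63, adjusted p = 0.00259), against 7.26% of all symbols, and that gene had to differ. Of the other 8 genes, 0 passed with edgeR, 2 had an unadjusted p under 0.05, and 2 passed with DESeq2. In rats 25 to 32, 5 of 9 passed, or 4 of 8 without SLC7A11, against 43.8% of all symbols: SLC7A11 (5.21, SE 0.46, adjusted p = 1.94e-05) and CHAC1 (2.41, SE 0.25, adjusted p = 5.03e-05) were higher, with 21.8% of all symbols, and SLC3A1 (-0.60, SE 0.09, adjusted p = 4.38e-04), GSR and CTH were lower, with 22.1%. CHAC1 also entered the fit of rats 25 to 32 mainly through KO animals, with 4 KO and 1 WT rats at the filter cutoff. Its call there, counted among the 4 of 8, leans on that filter. With library totals the symbols called in that range were mostly higher, as given above. These comparisons share animals with the fit over all rats. Tested as an interaction, the change differed between ranges for 3 of 9 genes, against 15.2% of all symbols. The change was larger in rats 25 to 32 for CHAC1 (log2 difference 1.99, SE 0.46, adjusted p = 0.00977), CTH (-0.36, SE 0.10, adjusted p = 0.0258) and GSR (-0.31, SE 0.09, adjusted p = 0.0362). CHAC1 passed in every fit that left out 1 rat. GSR was lost in 9 of those 16 fits (KO 18, 20, 22, 24 or 28, WT 17, 19, 27 or 29; adjusted p 0.052 to 0.0687) and CTH in 3 (KO 22 or 24, WT 25; adjusted p 0.0518 to 0.0533). For SLC7A11 the difference of 1.32 (SE 1.21, adjusted p = 0.471) did not pass, with WT reads too few to fix it, and for SLC3A1 it was -0.36 (SE 0.16, adjusted p = 0.124).

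In mice none of the 9 genes passed with limma on log2(value + 1), against 4.32% of 17376 symbols, and 4 had an unadjusted p under 0.05 (SLC3A1, GSR, CHAC1 and CTH). These values are scaled so that the 75th percentile of each mouse is 1, and the log2(value + 1) scale understates changes of low genes. CTH was at 3.19, 3.11, 3.02 and 3.67 in Ctns KO mice 3, 5, 6 and 8 and at 4.14, 3.58, 4.14 and 4.69 in Ctns WT mice 1, 2, 4 and 7 (log2 difference -0.27, SE 0.07, adjusted p = 0.0975). GSR was at 2.43, 2.49, 2.29 and 2.28 in KO and at 3.81, 2.45, 3.27 and 3.16 in WT mice (-0.30, SE 0.09, adjusted p = 0.14). In both genes the sole overlap was WT mouse 2, the lowest WT animal. SLC3A1 was at 15.4, 14.0, 13.2 and 16.4 in KO and at 16.7, 16.2, 17.2 and 20.4 in WT mice (-0.24, SE 0.09, adjusted p = 0.216).

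**Figure D4:**
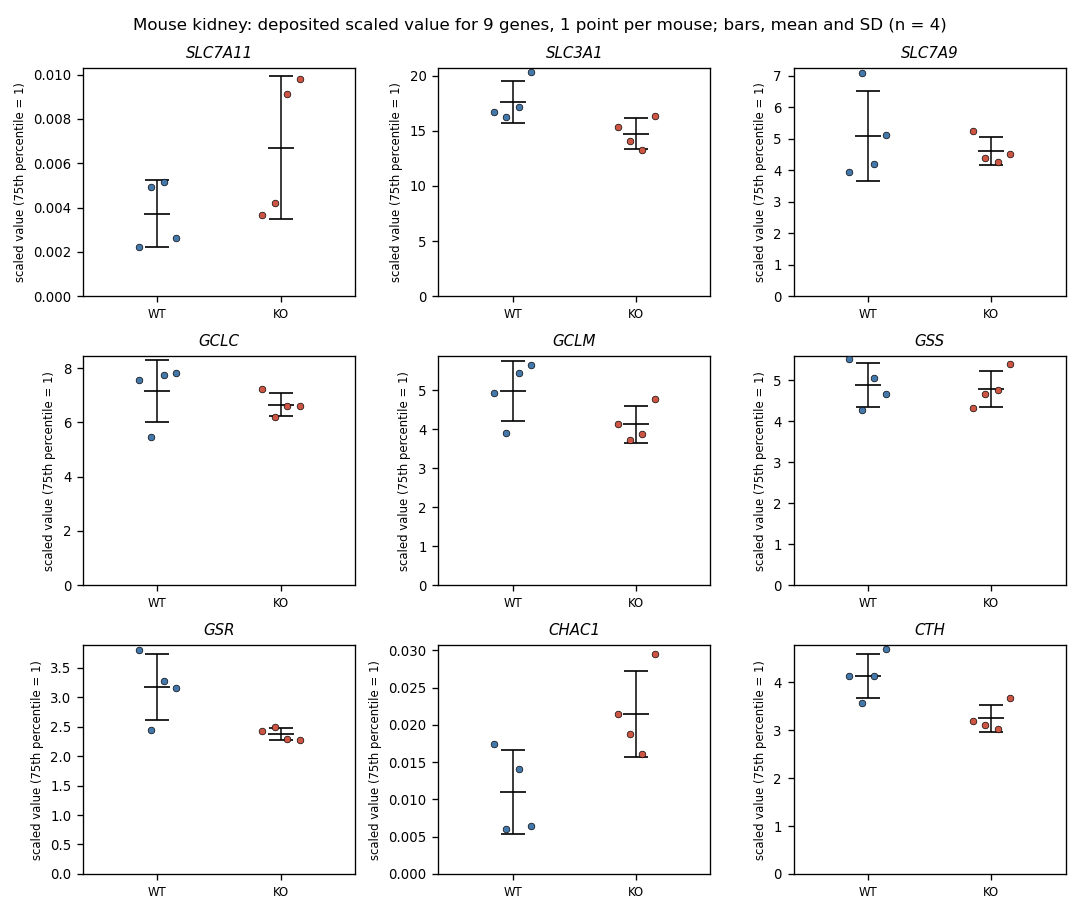
Deposited scaled value (75th percentile of each library = 1, linear axes from 0) of 9 genes in mouse kidney by genotype; each point is 1 mouse, and bars give the mean and SD of 4 mice. In CTH and GSR the Ctns KO mice lie below all Ctns WT mice but WT mouse 2, and the groups overlap in every gene.

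Whole reads could be recovered behind the mouse values, and edgeR on those reads called 2 of the 8 genes it kept, against 8.91% of its symbols. They were GSR (log2 fold change -0.44, SE 0.11, adjusted p = 0.0246) and CTH (-0.37, SE 0.09, adjusted p = 0.0196), both lower in Ctns KO mice. DESeq2 on the same reads called SLC3A1 as well (adjusted p = 0.0405). Without KO mouse 3, limma again called none, and the difference was -0.27 (SE 0.09) for CTH and -0.31 (SE 0.11) for GSR. Without WT mouse 2, GSR passed (adjusted p = 0.0279).

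The genes that rose in rats had few reads in mice. SLC7A11 had 3, 5, 14 and 16 reads in Ctns KO mice 3, 5, 6 and 8 and 3, 4, 7 and 5 reads in Ctns WT mice 1, 2, 4 and 7. The groups overlapped (exact two-sided permutation test on CPM, p = 0.2, where the smallest possible p was 0.0286). CHAC1 had 20, 24, 25 and 49 reads in KO and 27, 5, 20 and 13 in WT mice (exact two-sided permutation test on CPM, p = 0.0571). The ratios of summed scaled reads were 2.15 (exact 95% interval 1.21 to 3.95) for SLC7A11 and 1.95 (1.43 to 2.69) for CHAC1, for counting error only. The remaining genes were SLC7A9 (log2 difference -0.10, adjusted p = 0.863), GCLC (-0.08, adjusted p = 0.807), GCLM (-0.22, adjusted p = 0.361) and GSS (-0.02, adjusted p = 0.962), whose groups all overlapped.

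The genotype change was set against species in a limma interaction over 11216 symbols. None of the 9 genes passed, against 3.17% of symbols, and 2 had an unadjusted p under 0.05 (SLC7A11 and GCLM). SLC7A11 was nearest, with a larger change in rats (0.04 on the log2(value + 1) scale, SE 0.01, adjusted p = 0.0986). It passed with edgeR on reads (log2 difference 3.77, adjusted p = 0.0332) and without KO rat 18 (adjusted p = 0.0357). SLC7A11 came into the limma comparison through the rat filter, whose cutoff 8 KO and 0 WT rats reached. A larger change of SLC7A11 in rats was thus favoured beforehand, and these passes are no independent support for it. For GSR and CTH the differences between species were 0.02 (SE 0.10) and -0.04 (SE 0.17). Mice and rats also differ in the prefix of their library names and in the form of their tables, which cannot be told apart from species.

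Other genes of the pathway were read from the same fits, to be set beside the 15.2% of all symbols that rose and the 12.3% that fell in rats. Of all symbols in mice, 4.32% passed with limma. In the methionine cycle, transsulfuration and cysteine catabolism, 8 of 15 tested genes fell and none rose in Ctns KO rats, with a median log2 fold change of -0.25 against -0.02 over all symbols. BHMT, which remethylates homocysteine with betaine, went from 83.4 ± 42.3 to 45.7 ± 12.2 CPM (log2 fold change -0.87, SE 0.28, adjusted p = 0.027). MTR, the methionine synthase that uses folate, went from 56.8 ± 10.2 to 40.9 ± 12.5 CPM (-0.48, SE 0.17, adjusted p = 0.0466). In mice 1 of 17 passed, again BHMT, from 0.968 ± 0.152 to 0.519 ± 0.110 in scaled value. Its difference was -0.37 on the log2(value + 1) scale (limma, SE 0.07, adjusted p = 0.0339). With edgeR on recovered reads its log2 fold change was -0.93 (SE 0.16, adjusted p = 0.00851).

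Among other enzymes of glutathione breakdown, 1 of 9 rose and 2 fell in rats. GGCT, the cyclotransferase that acts on gamma-glutamyl amino acids, fell from 171 ± 26.5 to 113 ± 18 CPM (log2 fold change -0.59, SE 0.11, adjusted p = 6.58e-04), and OPLAH, the 5-oxoprolinase, from 408 ± 25.1 to 355 ± 19.6 CPM (-0.20, SE 0.05, adjusted p = 0.00667). GGT7 rose from 0.736 ± 0.109 to 1.19 ± 0.187 CPM (0.69, SE 0.14, adjusted p = 0.00151). In mice 1 of 10 passed, GGT6, from 0.480 ± 0.057 to 0.324 ± 0.035 in scaled value (limma, -0.16 on the log2(value + 1) scale, SE 0.03, adjusted p = 0.0369). Of 18 symbols of glutathione transferases, glutaredoxins and related enzymes tested in rats, 2 rose and 2 fell. GSTM2 and GSTM5 had identical reads in every rat, so the 18 hold 17 distinct measurements, and neither symbol passed in all rats. GSTM1, of the same family of near-identical copies, rose from 0.305 ± 0.088 to 0.744 ± 0.448 CPM (1.27, SE 0.33, adjusted p = 0.00831); it had 6 to 40 reads per rat, and how such reads were split between copies is uncertain. Glutaredoxin GLRX went from 9.89 ± 1.69 to 14.2 ± 4.07 CPM (0.52, SE 0.16, adjusted p = 0.0234) and GSTZ1, of tyrosine breakdown, from 203 ± 26.6 to 148 ± 41.4 CPM (-0.46, SE 0.15, adjusted p = 0.0286). HAGH, the glyoxalase that releases glutathione, fell from 210 ± 29.6 to 174 ± 14.4 CPM (-0.28, SE 0.08, adjusted p = 0.0172). In mice 1 of 18 passed, GSTO1, from 2.15 ± 0.16 to 1.71 ± 0.03 in scaled value (limma, -0.21 on the log2(value + 1) scale, SE 0.04, adjusted p = 0.0245).

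The targets of the regulators named above did not move one way. Of 12 ATF4 targets tested in rats outside the 10 genes, 5 rose and 4 fell. ATF3, a stress-induced transcription factor, went from 3.08 ± 0.76 to 14.8 ± 7.30 CPM (log2 fold change 2.26, SE 0.28, adjusted p = 2.93e-05), and TRIB3, a pseudokinase of the same response, from 1.04 ± 0.19 to 3.48 ± 1.99 CPM (1.74, SE 0.31, adjusted p = 6.73e-04). The serine synthesis enzymes PSAT1 (from 290 ± 41.8 to 184 ± 63.0 CPM, -0.65, SE 0.17, adjusted p = 0.0101) and PHGDH (from 198 ± 46.5 to 144 ± 21.7 CPM, -0.46, SE 0.13, adjusted p = 0.0146) fell. In mice 1 of 14 passed with limma, ATF3, from 0.031 ± 0.006 to 0.083 ± 0.017 in scaled value. Its difference was 0.07 on the log2(value + 1) scale (SE 0.01, adjusted p = 0.0193). With edgeR on recovered reads its log2 fold change was 1.41 (SE 0.20, adjusted p = 7.10e-04). That fit called 3 of the 14, 2 higher and 1 lower, against 8.91% of its symbols.

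Of 12 NRF2 targets tested in rats, 2 rose and 1 fell. HMOX1, heme oxygenase, rose from 5.15 ± 0.84 to 15.9 ± 5.03 CPM (log2 fold change 1.63, SE 0.18, adjusted p = 7.49e-06). SRXN1, sulfiredoxin, rose from 2.21 ± 0.33 to 5.22 ± 0.95 CPM (adjusted p = 3.69e-06). AKR1A1, an aldehyde reductase, fell from 2286 ± 452 to 1785 ± 212 CPM (-0.36, SE 0.11, adjusted p = 0.0265). In mice 0 of 14 passed with limma, 3 had an unadjusted p under 0.05, 1 passed with edgeR on recovered reads (ME1, -0.25, adjusted p = 0.0322) and 3 with DESeq2.

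Cell type markers moved with genotype beside these genes. In rats, 12 of 15 PT markers fell and none rose (median log2 fold change -0.58), 13 of 14 macrophage and lymphocyte markers rose, 9 of 10 fibroblast and matrix markers rose and 9 of 10 tubular injury markers rose. Beside that median, the log2 fold changes of the genes that fell were -0.42 for SLC3A1, -0.36 for GSR and -0.39 for CTH. A separate list of late PT markers had 2 of 7 lower and 0 higher, with a median log2 fold change of 0.10. The summed late PT markers were at 1373 to 1698 CPM in KO rats 26 to 32 and 2020 to 2523 CPM in WT rats 25 to 31. Of 9 markers of the thick limb, distal tubule and collecting duct, 3 rose and 0 fell. Summed PT markers were at 18511 to 23873 CPM in KO rats 26 to 32 and 36494 to 42036 CPM in WT rats 25 to 31. In rats 17 to 24 they were at 22233 to 24251 and 25600 to 31561 CPM. The summed macrophage and lymphocyte markers were at 418 to 585 CPM in KO rats 26 to 32, 226 to 250 CPM in KO rats 18 to 24, 203 to 249 CPM in WT rats 25 to 31 and 139 to 185 CPM in WT rats 17 to 23. In mice, 7 of 16 of these rose, with sums at 250 to 301 CPM in KO against 174 to 181 CPM in WT animals, 6 of 11 fibroblast and matrix markers rose and 6 of 10 injury markers rose. Summed PT markers did not overlap in mice either, at 28614 to 33055 CPM in KO and 35125 to 44515 CPM in WT animals, and 1 of 16 fell with limma and 3 with edgeR on recovered reads, where 6 passed with DESeq2. Of 11 podocyte and endothelial markers in rats, 0 passed with edgeR, 1 had an unadjusted p under 0.05, and 1 passed with DESeq2 and 1 with limma-voom. The part of any of these in the results for the 9 genes was not tested.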

How the data were processed

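Kidney RNA of 8 mice and 16 rats was sequenced as stranded, paired-end mRNA libraries, 1 per animal. Mouse values were deposited by the authors as a scaled signal: the values themselves show (reads + 0.5) over the library's 75th percentile, also raised by 0.5; reads recovered from it were whole for 99.0% of values (tolerance 0.01). Rat values were deposited as estimated counts, which the authors left unscaled with a small constant added to the reads (whole for 97.7% of values), and these were rounded to whole reads. Submitters' notes name bcl2fastq 2.20, STAR 2.7.3, R 3.6.1 and the builds mm10 and rn5, without roles. Symbols are of the human style. The 9 genes were whole reads in all animals, and no other symbol shared their values.

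Genotype and animal number came from the labels. In R 4.3.3, mouse values were tested with limma 3.58.1 (trend, robust) on log2(value + 1) without a filter, and rat reads with edgeR 4.0.16 (quasi-likelihood, robust, TMM, filterByExpr). Adjusted p-values are Benjamini-Hochberg values over all symbols, with 0.05 as the threshold. Rat CPM are TMM-scaled. Depth sets counting error only, and the number of animals limits group differences. Alternatives were DESeq2 1.42.0, limma-voom, other scalings, filters and pseudocounts, the number range as a covariate, leaving out each animal and, added after the data were seen, library totals without TMM. Scripts were tested on simulated data. Members, gene lists and the naming rule (all members; elsewhere at most 2 rises and 2 falls per list and species, the largest past the threshold) were chosen with earlier results of these data known.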

Additional observations from a re-analysis of the deposited data

Results flagged for a closer look

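For GCLC, Ctns WT mouse 2 had a scaled value of 5.45, against 7.58 to 7.81 in the other 3 WT mice, and WT rat 25 had 1149 CPM, against 732 to 789 CPM in the other 3 WT rats of its range. For GSR, Ctns KO rat 30 had 232 CPM, against 260 to 279 CPM in the other 7 KO rats. Each of these animals lay further from its group than Dixon's 95% limit, in 72 such tests, of which chance alone passes about 1 in 20.

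The genotype change differed between the rat number ranges, by an edgeR interaction term, for CHAC1 (log2 difference of 1.99, rats 25 to 32 minus rats 17 to 24), CTH (-0.36) and GSR (-0.31). PT, macrophage and injury markers differed between the same groups of rats, and their part was not tested.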

How the results depend on the processing

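No paired analysis was possible because Ctns KO and Ctns WT animals share no number. Across all alternatives that were run, no change of a called gene reversed its sign. In mice the count of the 9 genes called was 0 with limma, 1 with a filter on mean values of at least 0.1 (CTH, adjusted p = 0.0323), 2 with edgeR and 3 with DESeq2 on recovered reads, and 0 to 1 when 1 mouse was left out. Symbols called there went from 751 to 1198 with edgeR, 1520 with DESeq2, and 352 to 683 with 1 mouse left out (fewer by over 1.5 times without KO mouse 5 or 6 or WT mouse 1, 4 or 7). In rats 17 to 24 it was 1 with edgeR (7.26% of symbols called) and 3 with DESeq2 (8.93%; GSR, adjusted p = 0.0449, and CTH, adjusted p = 0.0449, as well), and 1 to 2 when 1 rat was left out (2 without WT rat 17 or WT rat 19). For the difference between species it was 0 with limma, 1 with edgeR on reads, and 0 to 1 when 1 animal was left out (1 without KO rat 18). Leaving out 1 rat gave 4 to 5 genes in all rats (2536 to 3478 symbols, 3180 with every rat), 5 to 6 in rats 25 to 32 (3946 to 5242, against 5100), 1 to 3 for the difference between ranges (1019 without KO rat 28, 1132 without KO rat 22, and up to 2389 without KO rat 30, against 1756) and 3 to 5 for the ranges within WT rats (1838 to 2654, against 2498). The symbols called were 504 to 930 in rats 17 to 24 (against 843; 504 without KO rat 24, 522 without WT rat 21, 549 without KO rat 20) and 181 to 478 between species (against 355; 181 without KO mouse 6, 235 without KO mouse 5). The causes were not tested. Other alternatives kept 16 of 21 such counts within 1.5 times. Of the counts for the other gene lists in mice and in all rats, 103 stayed within 1.5 times and 27 did not. Depth limits SLC7A11 and CHAC1, which had at most 76 and 63 reads in any animal.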

Other observations

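The wider pathway was also read by number range, with genes chosen here after their values were seen. In rats 25 to 32, 11 of 15 genes of the methionine cycle, transsulfuration and cysteine catabolism were lower and 1 higher in Ctns KO animals (edgeR), and in rats 17 to 24 4 of 15 passed, all lower; of all symbols, 22.1% were lower in rats 25 to 32 and 7.26% passed in rats 17 to 24. The gene that was higher was CDO1, which oxidises cysteine to its sulfinate (42.4 ± 7.04 against 32.7 ± 4.75 CPM, log2 fold change 0.37, SE 0.13, adjusted p = 0.0394). ANPEP, an apical peptidase that splits cysteinylglycine, was lower in the same rats (697 ± 65.5 against 964 ± 90.9 CPM, log2 fold change -0.47, SE 0.09, adjusted p = 0.00161). Tested as an interaction, the change of CDO1 (adjusted p = 0.132) and ANPEP (adjusted p = 0.0875) did not pass between ranges. SLC1A1 had a log2 fold change of -0.92 (SE 0.10) in rats 25 to 32 and of -0.21 (SE 0.06) in rats 17 to 24. This difference passed (-0.69, SE 0.12, adjusted p = 0.00147). Its mean was 151 CPM in WT and 130 CPM in KO rats of the range 17 to 24. In the range 25 to 32 it was 233 CPM in WT and 123 CPM in KO rats. Within WT rats, SLC1A1 was higher in 25 to 32 (log2 difference 0.62, SE 0.08, edgeR adjusted p = 4.76e-05). So were ANPEP (0.66, adjusted p = 2.1e-04) and CDO1 (0.36, adjusted p = 0.0454). A difference between ranges within KO rats was not tested.

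ABCC2, an apical pump that exports glutathione conjugates, differed between species in its genotype change (limma interaction, 0.54 on the log2(value + 1) scale, rats minus mice, SE 0.13, adjusted p = 0.0235). In mice it was lower in Ctns KO animals (scaled value 9.39 ± 0.83 against 12.2 ± 1.54; limma -0.35, SE 0.09, adjusted p = 0.0909; edgeR on recovered reads -0.40, SE 0.10, adjusted p = 0.0216). In rats the log2 fold change was 0.35 (SE 0.15, adjusted p = 0.0932) over all animals and 0.44 (SE 0.13, adjusted p = 0.0172) in the range 25 to 32.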
